A study of Homo sapiens with 4 samples.

Results

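The 55 genes described here encode the kinetochore, the spindle checkpoint, the chromosomal passenger complex, condensin and the cytokinesis machinery. They were chosen by name as mitotic genes, with earlier results of these data known. All 55 were found among the 63677 genes of the deposited table. For 2 of them the symbol stood on more than 1 row, and the row with the highest mean was kept. They were sorted into 9 roles by what their products do. RNA was sequenced from MDA-MB-231, an established human cell line from a triple-negative breast cancer (TNBC). Both groups were the same line, transfected with siRNA by lipofection. The siCt group received a control siRNA (libraries siCt 1 and siCt 2), and the siAXL group received a pool of several siRNAs against the receptor tyrosine kinase AXL (libraries siAXL 1 and siAXL 2). The time between transfection and harvest is not given in the sources used here, and neither is whether the 2 libraries of a group came from separate cultures. The p-values therefore measure the spread between these libraries, which may be technical.

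In mitosis, each chromosome is held at its centromere by a kinetochore. The inner kinetochore sits on nucleosomes that contain the histone variant CENP-A, and the outer kinetochore binds the microtubules of the spindle. While any kinetochore is unattached, the spindle checkpoint keeps the anaphase-promoting complex (APC/C) inactive. Once all are attached, CDC20 activates the APC/C, securin is degraded, separase opens cohesin, and the sister chromatids part. Condensin compacts the chromosomes beforehand, and the central spindle and a contractile ring divide the cell afterwards. Transcripts of most of these genes are known to rise in G2 and mitosis, so their level in a culture is read as a mark of how many cells divide.

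The libraries held 39574387 to 44585773 reads on genes. The values given below are normalized counts, that is, the reads of each gene after scaling by its library's size factor from DESeq2. AXL, the targeted gene, had 29189 and 30617 normalized counts in the siCt libraries and 8658 and 7141 in the siAXL libraries, so that 26.4% of the siCt mean remained. Its log2 fold change was -1.93 (standard error 0.0918, adjusted p = 0.000585 in limma). The mesenchymal markers VIM and CD44 were high at 2023 to 2293 and 784 to 860 CPM (reads scaled to a common library total), whereas SPARC, also set as a marker of the line, had at most 1.28 CPM. ESR1 and PGR, the hormone receptors that TNBC lacks, had at most 0.0758 and 0.0449 CPM. CDH1 had at most 2.20, EPCAM 13.3 to 17.6 and ERBB2 68.8 to 85.0 CPM. Of the 7 markers of blood, endothelial and mural cells, PECAM1 had 0 reads in all 4 libraries, and PDGFRB was the highest at 6.93 to 10.5 CPM.

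Of the 55 genes, 53 were lower and 2 were higher in siAXL than in siCt. Differences were tested with limma on log2(normalized count + 1), which shrinks the change of weakly expressed genes, and a call required an adjusted p (Benjamini-Hochberg) under 0.05 over all 16064 genes tested. Standard errors are given as SE. All 55 genes passed the filter on low counts, and the lowest value of any of them was 230.2 normalized counts. By this test 19 of the 55 (34.5%) fell in siAXL, beside 7.91% of all genes tested that were called lower and 18.7% called in either direction. The 19 were HMMR, PLK4, AURKB, CDCA8, TTK, BUB1B, MAD2L1, ZWINT, SKA3, NUF2, SKA1, SPC24, CENPM, HJURP, UBE2S, UBE2C, CDC20, PTTG1 and NCAPG. None of the 55 was called higher, beside 10.8% of all genes. At an unadjusted limma p under 0.05, 36 were lower (15.9% of all genes) and 0 higher (18.1% of all genes), and edgeR and DESeq2 likewise called 0 higher. The median log2 fold change was -0.27, beside -0.0022 over all genes tested, and the values ran from -0.57 in CENPM to 0.28 in CENPW. In RNA from a whole culture, fewer dividing cells and less RNA per dividing cell cannot be told apart.

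**Figure D1:**
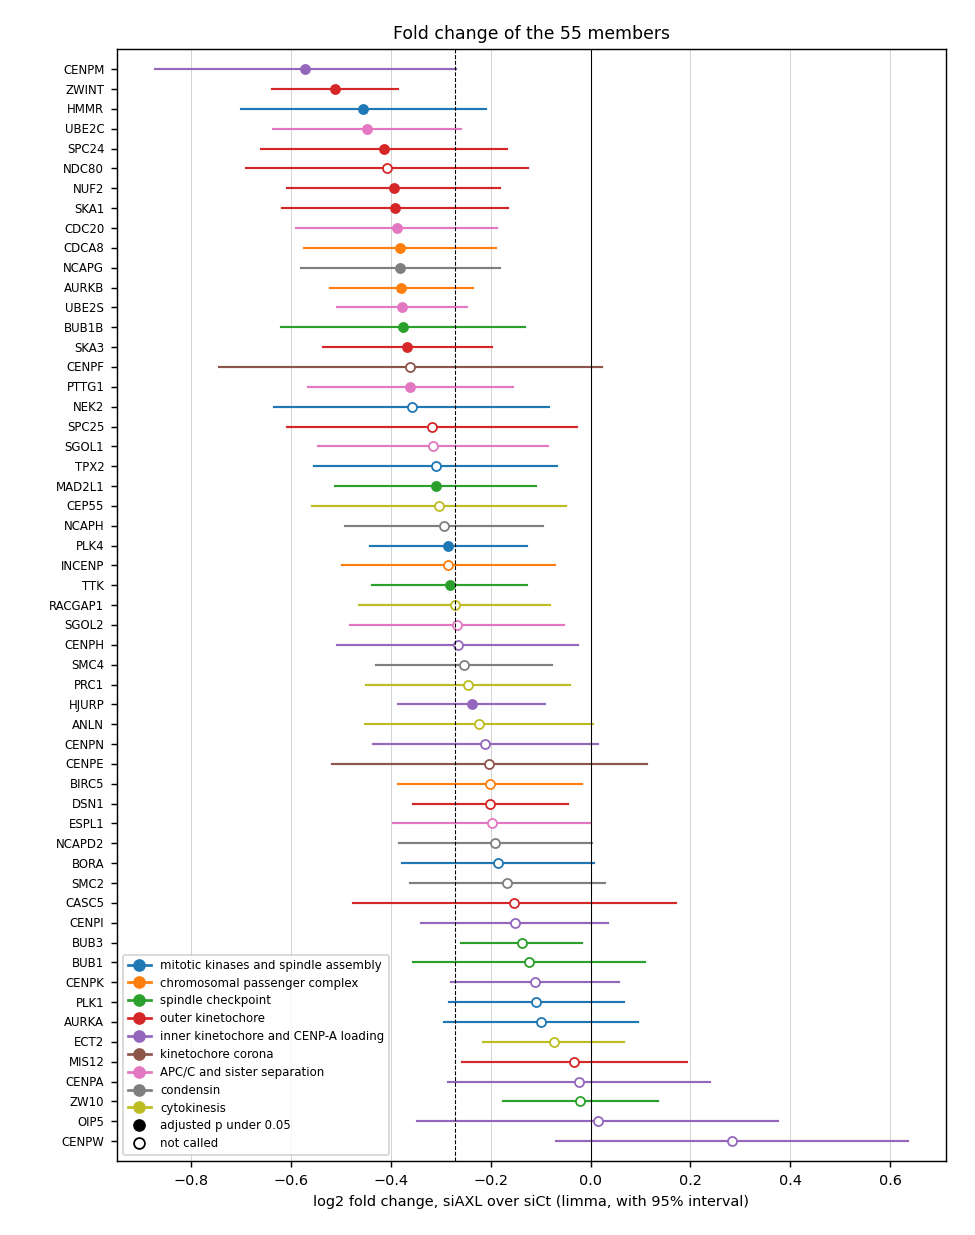
Log2 fold change of each of the 55 genes, siAXL over siCt, with its 95% interval from limma. Colours mark the role, filled points passed an adjusted p under 0.05, and the dashed line is the median of -0.27. The filled points, 19 in all, lie left of 0, from CENPM at the top (-0.57) to HJURP (-0.24), and OIP5 and CENPW at the bottom are the points right of 0.

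The difference was of unequal size in the 2 siAXL libraries. Against the mean of the siCt libraries, the median of the 55 genes was -0.37 in siAXL 1 and -0.16 in siAXL 2 on the log2 scale, where the medians over all genes tested were 0.0016 and 0.0012. In siAXL 1, 54 genes lay below the siCt mean, and in siAXL 2, 47 did. AXL itself went the other way, at -1.79 in siAXL 1 and -2.07 in siAXL 2. Against the siCt library of the same number, the medians of the 55 genes were -0.31 in siAXL 1 and -0.21 in siAXL 2. By that comparison 54 and 49 genes were lower. The labels do not say whether a shared number marks a shared culture. The siCt libraries also stood apart from each other, since 46 of the 55 genes were lower in siCt 1 than in siCt 2, by a median of 0.11. Between the siAXL libraries the same median was 0.22, and AURKB was the only gene of the 55 that was not lower in siAXL 1 than in siAXL 2. Over all genes tested these 2 medians were 0.011 and 0.023. Mitochondrial genes took 3.70% of the reads in siCt 1 and 3.78% in siAXL 1, against 2.11% in siCt 2 and 2.28% in siAXL 2, and their part in the order of the libraries was not tested. In 43 of the 55 genes each siAXL library was below each siCt library, beside 30.5% of all genes tested. CENPW was the only gene with both above, beside 30.6% of all genes, and the groups overlapped in 11. The shares over all genes given so far also stand beside the counts per role below.

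**Figure D2:**
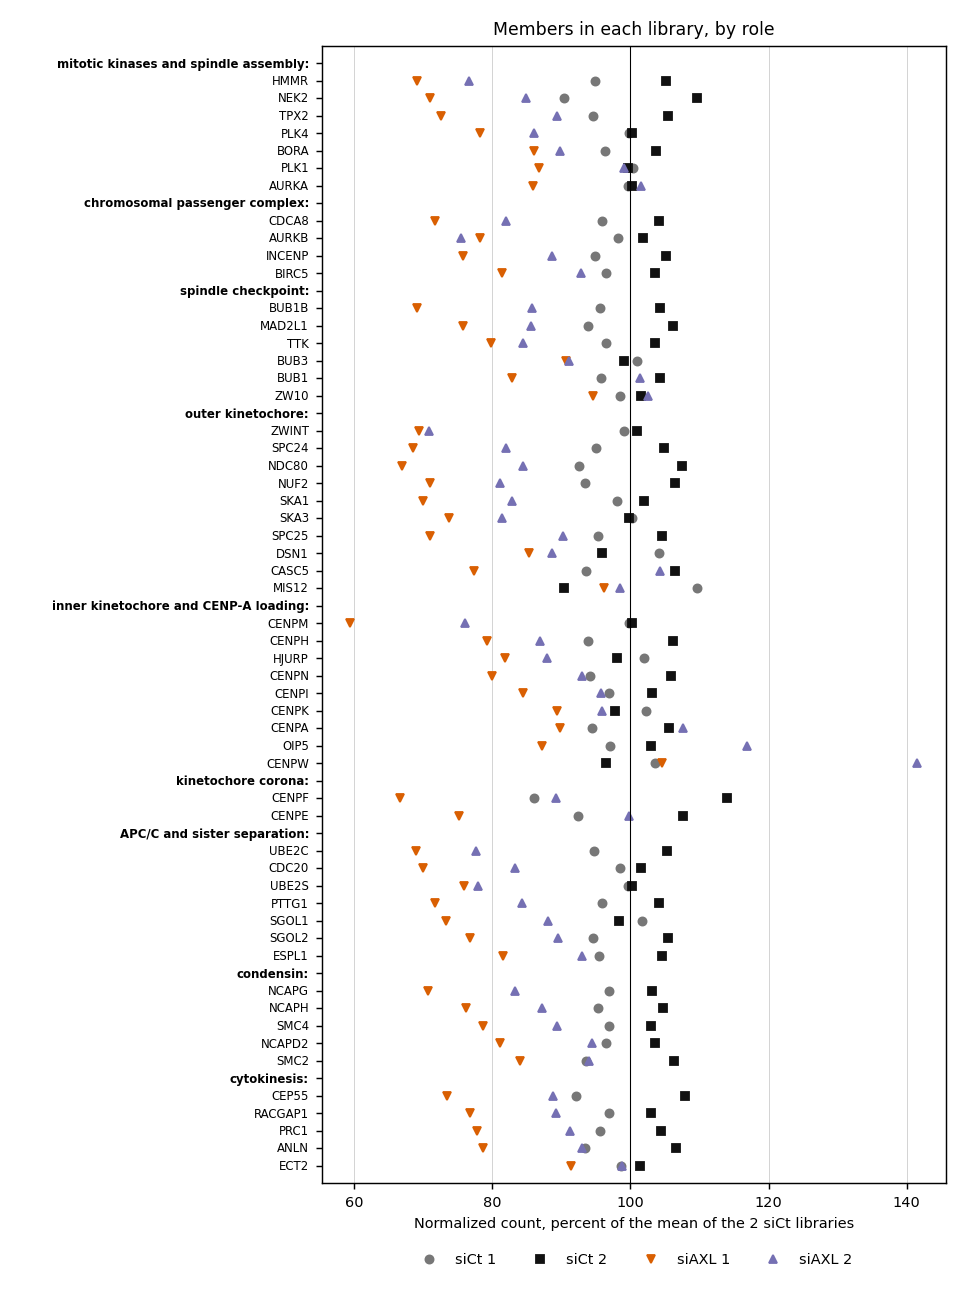
Normalized count of each of the 55 genes in each of the 4 libraries, as a percent of the mean of the 2 siCt libraries, grouped by role. Circles and squares are siCt 1 and siCt 2, and triangles pointing down and up are siAXL 1 and siAXL 2. The points of siAXL 1 lie furthest left in most rows, and in 43 rows both triangles lie left of both siCt points.

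Leaving out 1 library changed how many of the 55 genes were called. Without siAXL 1, 4 were called lower (AURKB, UBE2S, ZWINT and UBE2C), beside 2.57% of all genes, and the median of the 55 was -0.16. Without siAXL 2 the count was 31 beside 4.02% of all genes, and without siCt 1 it was 39 beside 10.8%. Without siCt 2 it was again 19 beside 5.82%, and 16 of these were among the 19 as reported. In each of these fits the lone library of a group was assumed to vary like the others. When every gene with at least 1 count in any library was tested, 3 of the 55 were called lower (AURKB, UBE2S and ZWINT), beside 1.25% of 27108 genes. On the recovered reads, edgeR called 20 (beside 7.92%) and DESeq2 27 (beside 8.57%), and all 19 were among them both times. With scaling by library size alone the count was 26 beside 10.9% of all genes. Under that scaling 46.8% of all called genes were higher in siAXL, where 57.7% were higher as reported. AURKB, UBE2S and ZWINT were called in the reported fit and in all 13 refitted alternatives.

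**Figure D3:**
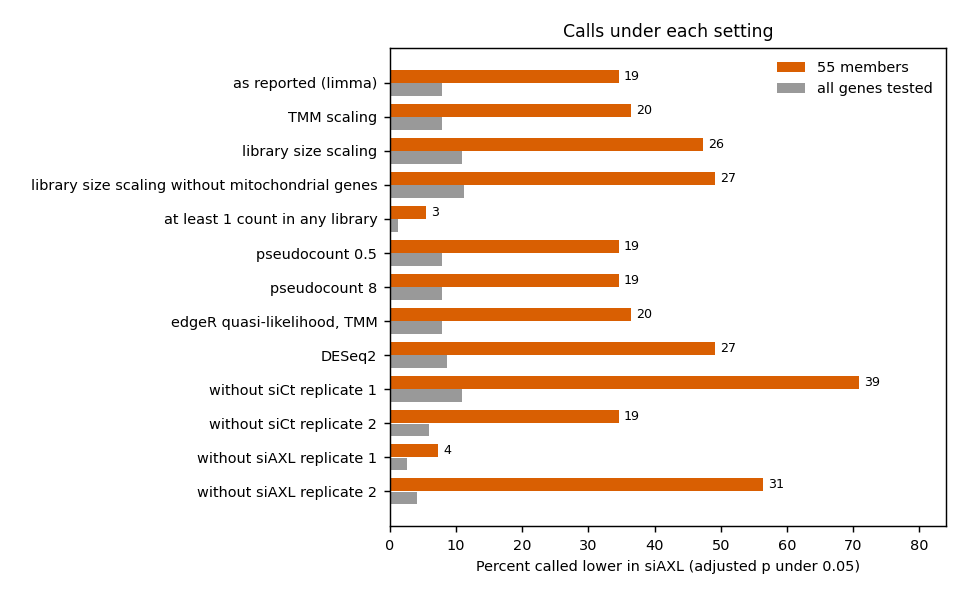
Percent of genes called lower in siAXL at an adjusted p under 0.05, for the 55 genes and for all genes tested, by setting. The fit with the replicate number as a block is not drawn. It called 48 of the 55 lower, beside 22.2% of all genes. The number beside each orange bar is the count among the 55. Among the settings drawn, the count drops from 19 to 3 with every gene of at least 1 count tested. With 1 library left out it also moves both ways.

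Promoters of many of these genes are known to share the cell cycle genes homology region (CHR), a short element bound by the DREAM and B-MYB complexes, and CCAAT boxes bound by NF-Y. The promoter table of RefSeq (GRCh38.p14, 250 bases before to 50 after each transcript start) held 45 of the 55 genes and 11461 of the genes tested. CHR was searched as TTTGAA or TTCGAA, on both strands, so that TTTGAA also appears as TTCAAA, and CCAAT as itself or as ATTGG. These upstream stretches of 150 bases end at the base before the start, and are shown for 4 genes that were called lower and hold both motifs. CHR and CCAAT matches are in capitals, and all are written along the gene's own strand.
HMMR (chr5:163460482-163460631, plus strand): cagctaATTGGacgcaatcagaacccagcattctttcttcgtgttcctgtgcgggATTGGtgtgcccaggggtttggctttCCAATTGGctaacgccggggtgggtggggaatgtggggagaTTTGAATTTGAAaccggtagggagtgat
CDCA8 (chr1:37692366-37692515, plus strand): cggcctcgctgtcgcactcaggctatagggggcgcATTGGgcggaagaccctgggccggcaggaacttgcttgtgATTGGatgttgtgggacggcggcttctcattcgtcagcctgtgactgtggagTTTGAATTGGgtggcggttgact
CDC20 (chr1:43358831-43358980, plus strand): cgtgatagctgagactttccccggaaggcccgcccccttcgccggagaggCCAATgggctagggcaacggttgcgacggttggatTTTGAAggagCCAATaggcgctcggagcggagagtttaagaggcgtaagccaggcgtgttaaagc
ZWINT (chr10:56361260-56361409, minus strand): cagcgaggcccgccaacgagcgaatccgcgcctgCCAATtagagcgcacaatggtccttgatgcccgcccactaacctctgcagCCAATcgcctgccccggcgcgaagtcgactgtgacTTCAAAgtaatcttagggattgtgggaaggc
In HMMR a pair of CHR matches stand side by side at positions -28 and -22, where the first base of the transcript is 1. In CDCA8 the match at -23 shares 1 base with an ATTGG match, in CDC20 a match at -65 stands between CCAAT matches at -100 and -55, and in ZWINT it lies on the other strand at -31.

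Among the 45 promoters 33 (73.3%) held a CHR match, beside 11.6% of the promoters of genes tested and 16.6% of all 27305 promoters in the table. The share was 75% in the 16 called genes with a promoter and 72.4% in the 29 that were not called. CCAAT was found in 32 of 45 (71.1%), beside 36.4% of genes tested and 35.7% of all promoters. Both motifs stood together in 51.1%, beside 4.83% and 6.58%. An E2F-like motif (TTTGGCG or TTTCGCG or TTTCCCG, both strands) was found in 5 of 45 (11.1%), beside 11.2% and 7.28%. In the called and the not called genes these shares were 62.5% and 75.9% for CCAAT, 37.5% and 58.6% for both motifs together, and 0% and 17.2% for the E2F-like motif, so the 4 stretches shown are not typical of the called genes. These are counts of letters, not of bound sites. AURKB and UBE2S, which were called in every fit, hold CCAAT but no CHR match in this window. The 30-base windows below show the CHR match (capitals) in the 8 other called genes that hold it, and then in PLK1, PRC1 and CENPW, which were not called.
PLK4 (chr4:127880913-127880942, plus strand): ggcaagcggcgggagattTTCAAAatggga
BUB1B (chr15:40161034-40161063, plus strand): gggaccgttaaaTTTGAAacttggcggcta
MAD2L1 (chr4:120066807-120066836, minus strand): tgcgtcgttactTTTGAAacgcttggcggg
NUF2 (chr1:163321958-163321987, plus strand): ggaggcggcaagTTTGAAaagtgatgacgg
SKA1 (chr18:50375066-50375095, plus strand): ggcgcggcgggcggTTTGAAttttgcttac
SKA3 (chr13:21176538-21176567, minus strand): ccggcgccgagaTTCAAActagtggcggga
HJURP (chr2:233854629-233854658, minus strand): gacgcaaatttgTTTGAAaggcccaatcag
NCAPG (chr4:17810932-17810961, plus strand): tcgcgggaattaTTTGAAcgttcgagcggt
PLK1 (chr16:23678848-23678877, plus strand): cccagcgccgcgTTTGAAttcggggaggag
PRC1 (chr15:90994538-90994567, minus strand): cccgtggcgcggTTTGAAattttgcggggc
CENPW (chr6:126340120-126340149, plus strand): gttggcggcggaTTCGAAcgttcggactga
The matches gathered near the transcript start. A CHR match from 50 bases before to 50 after the start was present in 27 of the 45 promoters (60%), beside 3.28% of genes tested and 5.05% of all promoters. Of the 41 CHR matches in the 45 promoters, 73.2% lay in that stretch, against 26.3% of the matches in genes tested.

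**Figure D4:**
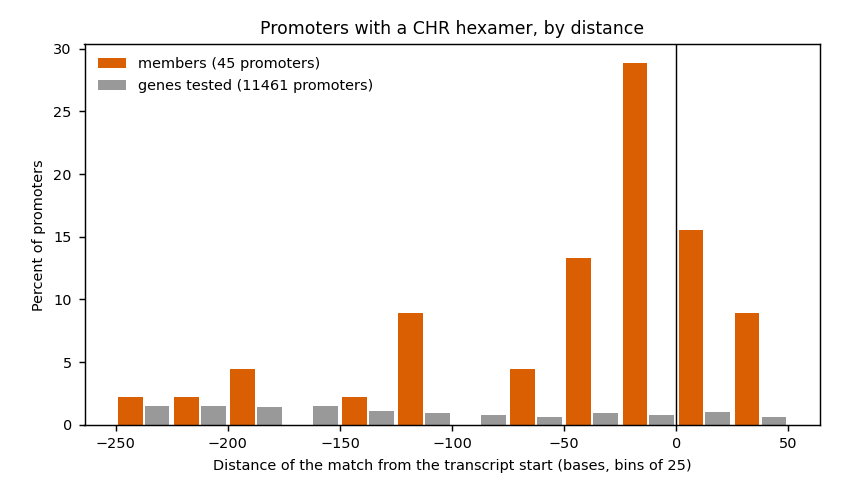
Percent of promoters with a CHR hexamer in each bin of 25 bases, by distance from the transcript start in bases, for the 45 promoters of the genes described here and the 11461 of genes tested. The orange bars are highest in the bin just before the start, while the grey bars stay low across the window.

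The mitotic kinases and spindle assembly factors were all lower in siAXL, with a median log2 fold change of -0.28, and 2 of 7 fell. HMMR, a microtubule-binding protein of the spindle poles, had 462 and 513 normalized counts in siCt 1 and siCt 2, and 337 and 373 in siAXL 1 and siAXL 2. Its log2 fold change was -0.46 (SE 0.104, limma adjusted p = 0.0261). PLK4, the kinase that starts centriole duplication, had 2655 and 2670 in siCt and 2083 and 2292 in siAXL (log2 fold change -0.28, SE 0.0668, limma adjusted p = 0.0284). In both genes each siAXL library was below each siCt library. AURKA, the kinase that matures centrosomes and builds the spindle, had the largest adjusted p in this role. It had 5530 and 5561 normalized counts in siCt, 4763 in siAXL 1 and 5626 in siAXL 2, so the siAXL libraries lay on either side of siCt (log2 fold change -0.099, 95% interval -0.29 to 0.094, limma adjusted p = 0.446). Without siAXL 1 its sign turned to 0.021. The other 4 were NEK2, a centrosome kinase, TPX2 and BORA, which activate AURKA, and PLK1, a kinase needed at many steps of mitosis. Their log2 fold changes lay between -0.36 (NEK2) and -0.11 (PLK1), and limma called none (limma adjusted p = 0.0749 to 0.354). DESeq2 called NEK2 and TPX2 lower. BORA shares exon sequence with DIS3 on the opposite strand, which had 498% of its reads, and the strand setting of the counting is not given in the sources used here.

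The chromosomal passenger complex corrects faulty attachments and steers cytokinesis. All 4 of its subunits were below siCt in both siAXL libraries, and 2 fell, with a median log2 fold change of -0.33. AURKB, its kinase, had 2230 and 2314 normalized counts in siCt 1 and siCt 2, and 1776 and 1717 in siAXL 1 and siAXL 2. The siAXL libraries stood close together and apart from siCt, with a log2 fold change of -0.38 (SE 0.0608, limma adjusted p = 0.00859). CDCA8, or borealin, which holds the complex at the centromere, had 3090 and 3355 in siCt and 2310 and 2644 in siAXL (log2 fold change -0.38, SE 0.0815, limma adjusted p = 0.0217). Its promoter is among the stretches of 150 bases printed above. BIRC5, or survivin, which brings the complex to chromatin, had 3361 and 3606 normalized counts in siCt and 2834 and 3234 in siAXL. Its log2 fold change of -0.20 (SE 0.0785) was not called (limma adjusted p = 0.120). INCENP, the scaffold of the complex, was not called by limma either, at -0.28 (limma adjusted p = 0.0695), but DESeq2 called it lower.

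Of the 6 spindle checkpoint genes 3 fell, and the median log2 fold change was -0.21. TTK, or MPS1, the kinase at the head of the checkpoint, had 2409 and 2585 normalized counts in siCt and 1995 and 2110 in siAXL. Its log2 fold change was -0.28 (SE 0.0661, limma adjusted p = 0.0282). BUB1B, or BUBR1, and MAD2L1, or MAD2, are parts of the complex that inhibits CDC20. BUB1B had 3783 and 4127 normalized counts in siCt, 2733 in siAXL 1 and 3389 in siAXL 2 (log2 fold change -0.38, SE 0.104, limma adjusted p = 0.0458). MAD2L1 had 3300 and 3732 in siCt and 2664 and 3009 in siAXL (log2 fold change -0.31, SE 0.0853, limma adjusted p = 0.0459). Both were below siCt in each siAXL library and close to the threshold, and neither was called without siAXL 1. ZW10, which brings dynein and the checkpoint proteins to the kinetochore, had 2147 and 2216 normalized counts in siCt and 2065 and 2238 in siAXL. The groups overlapped (log2 fold change -0.021, 95% interval -0.18 to 0.13, limma adjusted p = 0.859), and the sign turned without siAXL 1 (0.037) or siCt 2 (0.0020). BUB3 and BUB1, which form the platform on which the inhibitor is assembled, were at -0.14 and -0.12 and were not called (limma adjusted p = 0.107 and 0.427).

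The outer kinetochore held the gene with the smallest adjusted p of the 55. ZWINT, which links the microtubule-binding network to ZW10, had 5419 and 5528 normalized counts in siCt 1 and siCt 2, and 3798 and 3879 in siAXL 1 and siAXL 2. It stood at 70.1% of the siCt mean, with a log2 fold change of -0.51 (SE 0.0532, limma adjusted p = 0.00264). The libraries of a group differed little in this gene, and the groups were far apart. SKA3 and SKA1 belong to the complex that keeps kinetochores on shrinking microtubules. SKA3 had 1746 and 1739 normalized counts in siCt and 1285 and 1420 in siAXL (log2 fold change -0.37, SE 0.0717, limma adjusted p = 0.0161). SKA1 had 1025 and 1065 in siCt and 731 and 867 in siAXL (log2 fold change -0.39, SE 0.0958, limma adjusted p = 0.0320).

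The 4 subunits of the NDC80 complex, which grips the microtubule, were close to each other. NUF2 had 2523 and 2873 normalized counts in siCt and 1917 and 2189 in siAXL (log2 fold change -0.39, SE 0.0906, limma adjusted p = 0.0268). SPC24 was at -0.41 (limma adjusted p = 0.0352), NDC80 at -0.41 (limma adjusted p = 0.0562) and SPC25 at -0.32 (limma adjusted p = 0.117), so that 2 of the 4 fell by limma. DESeq2 also called NDC80 lower. The 3 remaining genes of the outer kinetochore tie these complexes to the centromere, and none was called. MIS12, the core of the linker complex, had 1898 and 1564 normalized counts in siCt and 1664 and 1705 in siAXL. Its siAXL values lay between the siCt values (log2 fold change -0.032, limma adjusted p = 0.847), and without siCt 1 the value was 0.11. DSN1, of the same complex, was at -0.20 (limma adjusted p = 0.0764), and CASC5, the scaffold that recruits checkpoint proteins, at -0.15 (limma adjusted p = 0.487). In all, 5 of the 10 outer kinetochore genes fell, with a median of -0.38 and 8 below siCt in both siAXL libraries. MIS12 shares exon sequence with DERL2 on the opposite strand, which had 151% of its reads.

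The inner kinetochore and CENP-A loading genes were more mixed. Of 9 genes 7 were lower and 2 higher in siAXL, the median log2 fold change was -0.15, and 2 fell. CENPM, a subunit of the constitutive centromere network, had 524 and 526 normalized counts in siCt, 312 in siAXL 1 and 399 in siAXL 2. Its log2 fold change of -0.57 (SE 0.128, limma adjusted p = 0.0248) was the lowest of the 55. HJURP, the chaperone that loads CENP-A onto centromeres, had 3499 and 3361 in siCt and 2806 and 3015 in siAXL (log2 fold change -0.24, SE 0.0624, limma adjusted p = 0.0398). HJURP was called lower in 10 of the 14 fits, and CENPM in 12. OIP5, or MIS18B, which prepares the centromere for loading, had 256 and 272 normalized counts in siCt, 230.2 in siAXL 1 and 309 in siAXL 2. Here the siAXL libraries enclosed the siCt libraries (log2 fold change 0.014, 95% interval -0.35 to 0.38, limma adjusted p = 0.960). OIP5 shares exon sequence with OIP5-AS1 on the opposite strand, which had 2288% of its reads, and its sign turned under scaling by library size (-0.015). CENPW, which sits on centromeric DNA with CENPT and was chosen after its values were seen, had 348 and 324 normalized counts in siCt, 352 in siAXL 1 and 476 in siAXL 2. It was the only gene of the 55 with both siAXL libraries above siCt, by little in siAXL 1, and was not called (log2 fold change 0.28, SE 0.150, limma adjusted p = 0.232).

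The histone CENPA itself was at -0.023 (limma adjusted p = 0.906), and its difference from the chaperone HJURP was not tested. CENPA shares exon sequence with SLC35F6 on its own strand, which had 210% of its reads. CENPH, CENPI, CENPK and CENPN, further subunits of the centromere network, lay between -0.27 and -0.11, with both siAXL libraries below both siCt libraries, and were not called (limma adjusted p = 0.116 to 0.323). CENPN shares exon sequence with CMC2 on the opposite strand, which had 83.1% of its reads.

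Neither of the 2 corona genes was called. CENPF, a large protein of the fibrous corona, had 12836 and 16986 normalized counts in siCt and 9941 and 13302 in siAXL, and its standard error was the largest of the 55. CENPE, the kinesin that carries chromosomes to the spindle equator, had 4238 and 4938 in siCt and 3450 and 4579 in siAXL. In both, siAXL 2 was above siCt 1, so the groups overlapped. The log2 fold changes were -0.36 for CENPF (SE 0.163, limma adjusted p = 0.170) and -0.20 for CENPE (SE 0.134, limma adjusted p = 0.336). Neither passed an unadjusted limma p under 0.05, and edgeR and DESeq2 called neither. Against the siCt library of the same number, CENPF was at -0.37 in siAXL 1 and -0.35 in siAXL 2. CENPE was at -0.30 and -0.11 by that comparison. With the replicate number as a block both were called lower, as were 48 of the 55 genes, beside 22.2% of all genes. Each of the 2 was called lower in 3 of the 14 fits. Against the siCt mean, siAXL 1 alone was at -0.57 in CENPF and -0.41 in CENPE. Without siAXL 1 the value of CENPE was 0.0014.

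**Figure D5:**
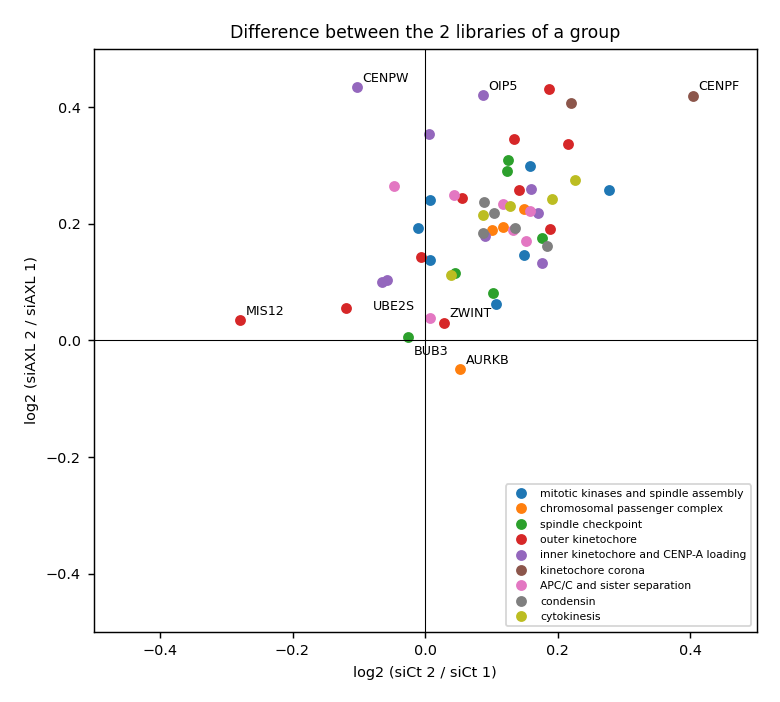
Difference between the 2 libraries of a group for each of the 55 genes, siCt 2 over siCt 1 on the horizontal axis and siAXL 2 over siAXL 1 on the vertical axis, both in log2. Most points lie above and to the right of 0, with CENPF far to the right. ZWINT, UBE2S, BUB3 and AURKB lie close to the crossing of the 0 lines, and AURKB is the only point below the horizontal line.

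Of the 7 genes of the APC/C and of sister separation, 4 fell, and all 7 were below siCt in both siAXL libraries, with a median log2 fold change of -0.36. UBE2C and UBE2S are the ubiquitin-conjugating enzymes that start and lengthen the chains made by the APC/C. UBE2S had 3424 and 3443 normalized counts in siCt and 2607 and 2679 in siAXL (log2 fold change -0.38, SE 0.0552, limma adjusted p = 0.00649). UBE2C had 5345 and 5938 in siCt and 3890 and 4380 in siAXL (log2 fold change -0.45, SE 0.0799, limma adjusted p = 0.0121). The libraries of a group were nearer to each other in UBE2S than in UBE2C, and neither gene overlapped between groups. Reads of UBE2S can be shared with its processed copy UBE2SP1, which had 4.17% as many. CDC20, the activator of the APC/C in mitosis, had 5155 and 5314 normalized counts in siCt, 3666 in siAXL 1 and 4361 in siAXL 2 (log2 fold change -0.39, SE 0.0851, limma adjusted p = 0.0233).

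PTTG1, or securin, the inhibitor that the APC/C destroys, had 4456 and 4835 normalized counts in siCt and 3333 and 3920 in siAXL (log2 fold change -0.36, SE 0.0870, limma adjusted p = 0.0308). ESPL1, the separase that securin holds back, had 2161 and 2369 in siCt and 1847 and 2106 in siAXL (log2 fold change -0.20, SE 0.0836, limma adjusted p = 0.145). Its siAXL 2 value lay just below siCt 1, and it was not called. SGOL1 and SGOL2, the shugoshins that protect centromeric cohesin, were at -0.32 and -0.27 and were not called (limma adjusted p = 0.0642 and 0.0829). SGOL2 shares exon sequence with KCTD18 on the opposite strand, which had 24.3% of its reads.

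Of the 5 condensin genes 1 fell, and the median log2 fold change was -0.25. NCAPG, a HEAT-repeat subunit of condensin I, had 6253 and 6651 normalized counts in siCt, 4562 in siAXL 1 and 5376 in siAXL 2. Its log2 fold change was -0.38 (SE 0.0845, limma adjusted p = 0.0242), and it shares exon sequence with LCORL on the opposite strand, which had 25.3% of its reads. SMC2, an ATPase common to both condensins, had 5584 and 6342 normalized counts in siCt and 5012 and 5605 in siAXL. Its siAXL 2 value was just above siCt 1, and it was not called (log2 fold change -0.17, SE 0.0828, limma adjusted p = 0.205). SMC4, the partner ATPase, was at -0.25 with an adjusted p of 0.0556 by limma, and was called by edgeR and DESeq2. NCAPH, the kleisin that closes the ring, and NCAPD2 were at -0.29 and -0.19 and were not called by limma (adjusted p = 0.0524 and 0.151). DESeq2 called NCAPH lower. NCAPD2 shares exon sequence with MRPL51 on the opposite strand, which had 40.6% of its reads.

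None of the 5 cytokinesis genes was called by limma or edgeR, beside 7.91% and 7.92% of all genes called lower. In 4 of them both siAXL libraries were below both siCt libraries, beside 30.5% of all genes tested. The median log2 fold change of the 5 was -0.25, and 3 were lower at an unadjusted limma p under 0.05 (beside 15.9% of all genes). DESeq2 called 2 lower, RACGAP1 and CEP55 (beside 8.57%). ECT2, which activates RhoA at the cell equator, had 10107 and 10382 normalized counts in siCt and 9358 and 10119 in siAXL. The siAXL 2 value lay between those of siCt (log2 fold change -0.074, 95% interval -0.22 to 0.067, limma adjusted p = 0.436). Its partner in the central spindle, RACGAP1, was at -0.27 (limma adjusted p = 0.0578). PRC1, which bundles the antiparallel microtubules of the midzone, was at -0.25, and CEP55, which recruits the abscission machinery to the midbody, at -0.30 (limma adjusted p = 0.0925 and 0.0936). ANLN, or anillin, the scaffold of the contractile ring, was at -0.22 (limma adjusted p = 0.156).

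Levels between genes were compared as the mean normalized count over the 4 libraries per kb of exon in GENCODE 29. UBE2C was the highest at 3801 per kb, ahead of TPX2 at 3375, ANLN at 2602, CDC20 at 2269 and PTTG1 at 2055. HMMR was the lowest at 107 per kb, below CASC5 at 208.6, CENPH at 209.5, OIP5 at 215.8 and BORA at 217.9. Genes that fell stood at both ends of this order, since UBE2C, CDC20 and PTTG1 are at the top and HMMR at the bottom.

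Other genes of the same pathways were taken from 7 lists of 82 genes found in the table. Of these, 17 fell in siAXL (20.7%, beside 7.91% of all genes tested) and 3 rose (beside 10.8%). These shares over all genes also stand beside the counts of each list below. Of the 82 genes 62 were lower and 20 higher, and the median log2 fold change was -0.12, nearer to 0 than the -0.27 of the 55 genes. Condensin II, the nuclear counterpart of condensin I, was the list in which every gene fell, with NCAPG2 at -0.36, NCAPH2 at -0.29 and NCAPD3 at -0.27 (limma adjusted p = 0.0176, 0.0276 and 0.0317). Among 12 further inner kinetochore genes 2 fell, CENPQ (-0.39, limma adjusted p = 0.0130) and CENPU (-0.31, limma adjusted p = 0.0147), which are partners in the centromere network. Among 11 further outer kinetochore and checkpoint genes 2 fell, KNTC1 (-0.28, limma adjusted p = 0.0144) and ZWILCH (-0.24, limma adjusted p = 0.0372), which form a complex with ZW10. ZWILCH and NCAPD3 share exon sequence with genes on the opposite strand, RPL4 with 1145% and VPS26B with 55.1% of their reads.

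Of the 16 genes of APC/C subunits and regulators 5 fell (31.25%, beside 7.91% of all genes tested) and 2 rose (beside 10.8%). ANAPC7, a subunit, and FBXO5, the interphase inhibitor EMI1, were lower, at -0.28 and -0.31 (limma adjusted p = 0.0154 and 0.0204). ANAPC1, the largest subunit, and ANAPC16 were higher, at 0.41 and 0.24 (limma adjusted p = 0.0216 and 0.0454). ANAPC16 shares exon sequence with ASCC1 on the opposite strand, which had 49.15% of its reads. Of 13 genes of cohesin and its regulators 2 fell, SMC1A (-0.32, limma adjusted p = 0.0252) and CDCA5, or sororin (-0.32, limma adjusted p = 0.0291), with a median of -0.028 over the list. Of 19 further spindle assembly genes 3 fell, with TACC3 at -0.29 and HAUS6 at -0.29 (limma adjusted p = 0.0324 and 0.0361), and 1 rose, TUBGCP2 of the gamma-tubulin ring complex at 0.24 (limma adjusted p = 0.0238). Of 8 further cytokinesis genes, mostly of the ESCRT machinery that cuts the midbody, limma, edgeR and DESeq2 called 0. At an unadjusted limma p under 0.05, 2 of the 8 were lower, beside 15.9% of all genes tested. Without siAXL 1, 1 of the 82 genes was called lower, ANAPC10, a subunit of the APC/C named after its values were seen, which shares exon sequence with ABCE1 on the opposite strand (1601% of its reads).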

How the data were processed

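Total RNA of 4 libraries was sequenced. Per the labels, the authors used CASAVA 1.8, TopHat2 2.0.10, HTSeq 0.5.3 and GRCh37, and deposited a normalized signal per gene, the read count divided by the library's DESeq2 (1.4.5) size factor. In each library 100% of values were whole multiples of 1 read (within 0.01 read), so reads were recovered by division. The authors' columns of means, fold changes, errors and p-values were not used.

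Genes passing edgeR's filterByExpr (16064; 47613 did not) were fitted with limma 3.58.1 (intensity trend, R 4.3.3), without covariates. As 2 against 2 libraries cannot give a two-sided permutation p under 0.333, the p-values rest on the spread shared across genes. The chi-square per gene between libraries of a group was 21.6 (siCt) and 19.6 (siAXL), so none repeated another. Scripts were tested on simulated data. Alternatives were edgeR 4.0.16 and DESeq2 1.42.0 on recovered reads, TMM and library size scaling, other filters and pseudocounts, a replicate block and leaving out each library.

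The members, lists and tests were chosen with earlier results of these data known. Per role, the text gives every library for up to 4 called genes with the smallest adjusted p and the 1 gene with the largest, and names 2 called genes per direction in the other lists. CENPF and CENPW were added after their values were seen. Overlaps (partners with at least 20% of a member's reads, in 9 members, 1 of which is not reported here) and exon lengths came from GENCODE 29, promoters from RefSeq by symbol.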

Additional observations from a re-analysis of the deposited data

How the results depend on the processing

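The median log2 fold change of the 55 genes stayed negative under all settings run, between -0.37 (without siAXL 2) and -0.16 (without siAXL 1), and AXL stayed called. The genes called lower numbered 19 as reported, 3 with every gene of at least 1 count tested, 3 at an adjusted p under 0.01, and 4 to 39 with 1 library left out. Of the other pathway genes, 17 were called lower and 3 higher. With every gene of at least 1 count these were 2 and 0, at an adjusted p under 0.01 0 and 0, and with 1 library left out 1 to 26 lower and 0 to 4 higher. Over all genes 1271 were called lower and 1735 higher, against 340 and 757 with every gene of at least 1 count, 246 and 613 at an adjusted p under 0.01, and 413 to 1742 and 872 to 2158 with 1 library left out. The cause of these changes was not tested.

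The labels number the libraries 1 and 2 in each group but do not say that a number marks a shared culture or day. The deviations of same-numbered libraries had a Pearson correlation across genes of 0.271, from 2 pairs. With the replicate number as a replicate block, 48 of the 55 genes were called lower and 1 higher, 42 and 13 of the other pathway genes, and 3573 and 3737 of all genes.

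The signs that turned were all of genes that were not called. Without siAXL 1 these were AURKA (0.021), BUB1 (0.022), CASC5 (0.063), CENPE (0.0014), ZW10 (0.037) and CENPA (0.11), without siCt 2 ZW10 (0.0020) and CENPA (0.057), and without siCt 1 MIS12 (0.11). With 1 library left out the lowest values were -0.22 in AURKA, -0.27 in BUB1, -0.37 in CASC5, -0.41 in CENPE, -0.079 in ZW10, -0.15 in CENPA and -0.17 in MIS12. OIP5 was -0.015 with library size scaling, -0.013 with mitochondrial genes left out of it, -0.029 without siCt 1, and -0.20 (without siAXL 2) to 0.22 (without siAXL 1) with 1 library left out. Over single genes, 722 values kept sign and call, 82 lost the call and 93 gained it. With 2 libraries per group, the spread of any single gene is known poorly.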
